A study of Mus musculus with 6 samples.

Results

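The tricarboxylic acid (TCA) cycle of liver mitochondria was examined through 9 of its enzyme genes, citrate synthase (Cs), the isocitrate dehydrogenases Idh2 and Idh3a, oxoglutarate dehydrogenase (Ogdh), succinyl-CoA ligase (Suclg1), the succinate dehydrogenase subunits Sdha and Sdhb, fumarase (Fh1) and malate dehydrogenase (Mdh2). The members are the probes whose RefSeq accession belongs to one of these genes, which gave 14 probes among the 56605 probes of the array and 9 genes among the 22907 with a gene symbol. Cs, Idh2, Ogdh, Sdha and Sdhb had 2 probes each and the other 4 genes 1 probe each.

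Livers came from 6 male mice, 12 weeks old, on a 12 hour light-dark cycle and with free access to food. The control group of 3 mice received granulated regular chow only, and the soy group of 3 mice received 75% regular chow with 25% soy bean powder, both for 28 days. Strain and genotype are not given in the sources used here, and the mice carried no stated genetic change or drug. RNA of each mouse was hybridized to its own 1-colour Agilent G3 Mouse Gene Expression v.2 array, so each value below is the normalized signal of a probe on an array (log2), and the number of arrays limits its precision.

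The TCA cycle oxidizes the acetyl group of acetyl-CoA to carbon dioxide in the mitochondrial matrix and hands the electrons to the respiratory chain. In hepatocytes its intermediates also leave for glucose, fatty acid and amino acid synthesis, and they are refilled from pyruvate and from amino acids. Fumarate enters this scheme from several sides, since succinate dehydrogenase, the urea cycle, purine synthesis and tyrosine breakdown all release it, and fumarase turns it into malate.

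Of the 9 enzyme genes, fumarase showed the largest difference between the diets. Its signal was lower in every soy liver than in all control livers, with a change of -0.67 (log2). Its neighbours in the cycle, the succinate dehydrogenase subunits before it and Mdh2 after it, differed by at most 0.15 over all arrays. With 1 array left out, Sdhb changed by between -0.30 (without control 3) and -0.04 (without control 2). Idh2 was the other gene whose groups did not overlap, and it was higher in soy livers. No member passed the thresholds used here, which were an adjusted p under 0.05 over all probes together with a fold change above 1.5 or under 0.66. By the brightest probe of each gene, 0.458% of all genes passed, with 0.17% lower and 0.288% higher in soy livers, as did 0.35% of all probes. All 14 member probes were well above background on all 6 arrays and none was saturated.

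**Figure D1:**
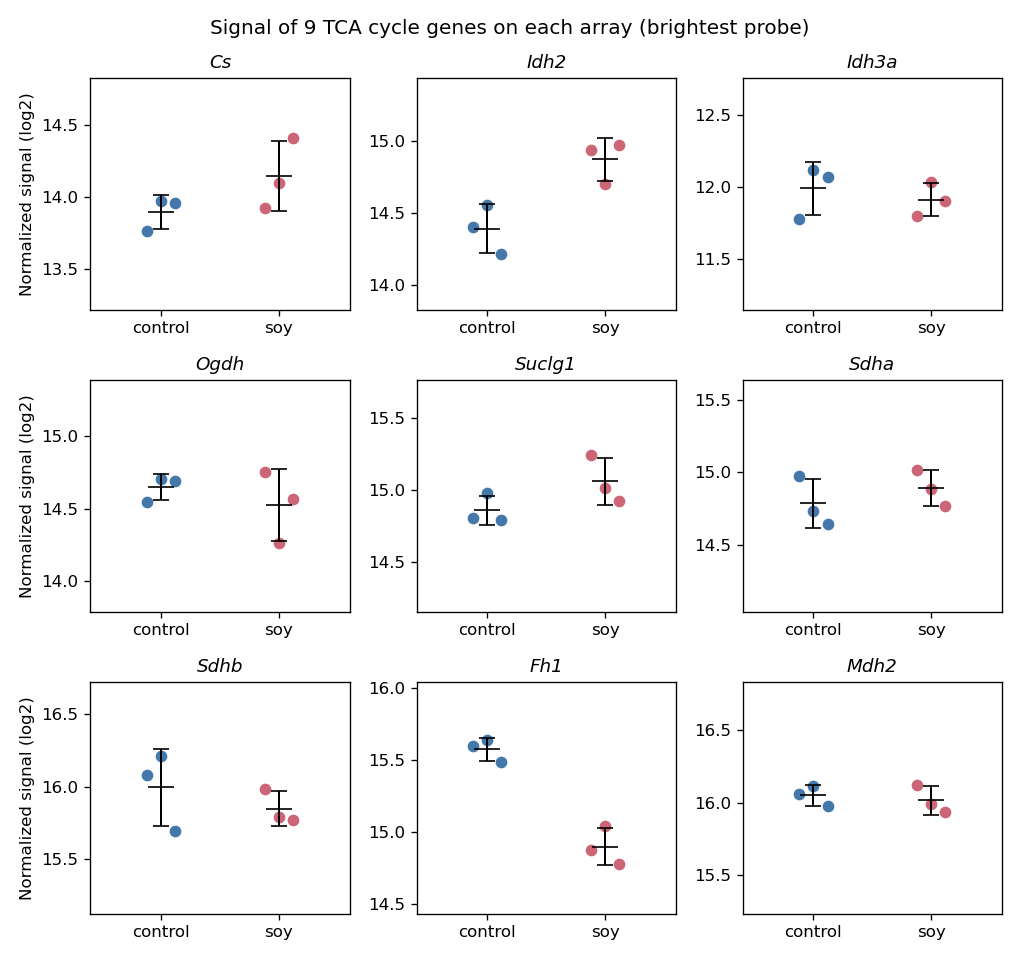
Normalized signal (log2) of each member on its brightest probe, with 1 point per array, 3 control and 3 soy arrays, and the mean with its SD in black; each panel spans the same range of 1.6 log2 units. Fh1 lies lower on all 3 soy arrays, Idh2 lies higher, and the points of the other 7 genes overlap between the diets.

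Fumarase catalyses the hydration of fumarate to malate. Its only probe on the array (Fh1, NM_010209) gave 15.59, 15.64 and 15.49 in control livers, and 14.88, 15.04 and 14.78 in soy livers. All soy arrays lay below all control arrays, with 15.57 ± 0.08 in control and 14.90 ± 0.13 in soy livers (mean ± SD, n = 3). The change was -0.67 (SE 0.11, 95% interval -0.92 to -0.42), a fold of 0.628 in soy over control, with an unadjusted p of 0.000302 and an adjusted p of 0.0591. Fh1 thus met the fold threshold and missed the adjusted threshold. Of the 13510 genes whose brightest probe was well above background on all arrays, 322 (2.38%) had a change as low as that of Fh1 or lower. An exact two-sided permutation test over the 6 arrays gave p = 0.1, the smallest that 3 arrays against 3 can give. Slide 1 held control 1, control 2 and soy 1, slide 3 held control 3 and soy 3, and slide 2 held soy 2 alone. Within the slides that hold both diets the change of Fh1 was -0.74 (slide 1) and -0.70 (slide 3). Each of these values rests on 1 soy array, and soy 2 enters neither. In liver tissue, fewer cells of a type and less RNA per cell cannot be told apart for this or any other gene below.

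The regulatory sequence next to the start of Fh1 is shown with that of Idh2, because these are the members whose diets did not overlap and they lay in opposite directions. Each run covers 250 bases before and 50 bases from the transcription start, on the strand of the gene, from RefSeq on assembly GRCm38.p6. The Fh1 window is chr1:175625586-175625885 and the Idh2 window chr7:80115301-80115600, both on the minus strand. Capitals mark the letters CCAAT, or ATTGG where the match is on the opposite strand.
Fh1: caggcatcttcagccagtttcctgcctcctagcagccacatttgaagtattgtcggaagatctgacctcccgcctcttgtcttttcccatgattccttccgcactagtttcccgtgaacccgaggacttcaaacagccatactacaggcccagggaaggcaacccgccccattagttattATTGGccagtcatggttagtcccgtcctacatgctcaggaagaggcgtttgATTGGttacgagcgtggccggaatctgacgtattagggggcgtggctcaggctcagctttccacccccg
Idh2: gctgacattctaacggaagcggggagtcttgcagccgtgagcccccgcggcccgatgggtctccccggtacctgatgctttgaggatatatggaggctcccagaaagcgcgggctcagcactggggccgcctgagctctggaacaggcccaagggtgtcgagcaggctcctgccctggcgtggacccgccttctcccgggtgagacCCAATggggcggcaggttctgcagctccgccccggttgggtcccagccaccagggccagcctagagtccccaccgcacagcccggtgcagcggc
Fh1 held 2 such matches, both on the opposite strand, starting at -70 and -19 from the transcription start, and Idh2 held 1, starting at -44. The letters GGGCGG (GC box, either strand) were found 1 time in Fh1 and 2 times in Idh2. A promoter window was found for 8 members and not for Idh3a. Of Ogdh, which has several starts, any window counted. CCAAT occurred in 6 of these 8, and in 37.4% of all windows of this length. GGGCGG also occurred in 6 of 8, and in 35.7% of all windows. The letters TNAAGGTCA (N is any base), bound by estrogen-related receptors, were in no member window and in 1.28% of all windows. Both strands were searched, no CCAAT match overlapped a GGGCGG match in the windows shown, and the matches are descriptions of sequence and not of binding.

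Idh2 is the mitochondrial NADP-dependent isocitrate dehydrogenase, which makes NADPH beside oxoglutarate. Its brightest probe (NM_173011) gave 14.41, 14.55 and 14.22 on control and 14.94, 14.70 and 14.97 on soy arrays. All soy arrays lay above all control arrays, with soy 2 the closest to them. The change was 0.48 (SE 0.13, 95% interval 0.18 to 0.78, adjusted p = 0.200), and the dimmer probe gave 0.55 (SE 0.18, adjusted p = 0.295), so both probes were higher in soy livers without passing. With Fh1, Idh2 made 2 of 9 members (22.2%) without overlap, against 25.5% of the genes well above background on all arrays and 20.4% of all genes (10.8% lower and 9.66% higher in soy livers), a share near the background. The same 2 members had an unadjusted p under 0.05, beside 14.3% of all genes.

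The NAD-dependent isocitrate dehydrogenase works beside Idh2 at the same step and is the form that feeds the respiratory chain. Its catalytic subunit Idh3a (NM_029573) gave 11.78, 12.12 and 12.07 on control and 11.80, 12.03 and 11.91 on soy arrays. The diets overlapped, and the change was -0.08 (SE 0.13, adjusted p = 0.859). With 1 array left out it lay between -0.18 (without control 1) and -0.01 (without control 2). The other subunits, Idh3b and Idh3g, changed by 0.03 and -0.06.

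Citrate synthase opens the cycle by joining acetyl-CoA to oxaloacetate. The brighter Cs probe (NM_026444) gave 13.76, 13.97 and 13.96 on control and 13.93, 14.10 and 14.41 on soy arrays. The soy values reached higher, but soy 1 lay below 2 of the controls. The change was 0.25 (SE 0.14, adjusted p = 0.571). With 1 array left out it lay between 0.11 (without soy 3) and 0.35 (without soy 1). On the dimmer probe it was 0.09 (adjusted p = 0.781), and there the soy values all lay just above the controls.

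Ogdh is the decarboxylating subunit of the oxoglutarate dehydrogenase complex. Its brighter probe (NM_001252287) gave 14.54, 14.71 and 14.69 on control and 14.75, 14.26 and 14.57 on soy arrays. Soy 1 lay above all controls, and soy 2 was the lowest of all 6. The change was -0.12 (SE 0.14, adjusted p = 0.793) on this probe and 0.09 (SE 0.10) on the dimmer one, the only member whose probes differed in sign. Dlst and Dld, the other subunits of the complex, changed by -0.05 and 0.07.

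Succinyl-CoA ligase forms GTP or ATP at the next step, with Suclg1 as the subunit common to both forms. Suclg1 (NM_019879) gave 14.81, 14.97 and 14.79 on control and 15.24, 15.01 and 14.92 on soy arrays. Only soy 3 fell among the controls, below control 2. The change was 0.20 (SE 0.12, adjusted p = 0.581). With 1 array left out it lay between 0.11 (without soy 1) and 0.27 (without soy 3). The partner that makes the GTP form, Suclg2, changed by 0.23 (SE 0.13, adjusted p = 0.559). The partner of the ATP form, Sucla2, changed by -0.24 (SE 0.10, adjusted p = 0.438). Sucla2 was lower in soy livers without overlap.

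Succinate dehydrogenase, which is also complex II of the respiratory chain, makes the fumarate that fumarase uses. The flavoprotein subunit Sdha (NM_023281) gave 14.98, 14.74 and 14.64 on control and 15.02, 14.88 and 14.77 on soy arrays. The iron-sulfur subunit Sdhb (NM_023374) gave 16.08, 16.21 and 15.69 on control and 15.99, 15.79 and 15.77 on soy arrays. Both overlapped between the diets, with changes of 0.10 (SE 0.12, adjusted p = 0.799) and -0.15 (SE 0.15, adjusted p = 0.760). With 1 array left out, Sdha changed by between 0.03 and 0.20 and Sdhb by between -0.30 and -0.04. Their dimmer probes gave 0.15 and -0.08, and the membrane anchors Sdhc and Sdhd changed by 0.11 and 0.07. Of the 4 assembly factors of the complex, Sdhaf1, which helps to insert the iron-sulfur clusters, was higher on each soy array, with 11.40, 11.88 and 11.61 in control and 12.14, 12.19 and 12.11 in soy livers. Its change of 0.52 (SE 0.13, adjusted p = 0.187) did not pass, and the changes of Sdhaf2, Sdhaf3 and Sdhaf4 lay between -0.10 and -0.02.

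Mdh2, the mitochondrial malate dehydrogenase, oxidizes the malate that fumarase makes. Mdh2 (NM_008617) gave 16.06, 16.12 and 15.97 on control and 16.12, 15.99 and 15.93 on soy arrays. The diets covered nearly the same range, and the change was -0.03 (SE 0.10, 95% interval -0.27 to 0.20, adjusted p = 0.925). A miss of the threshold does not show equal levels, and for the 7 members other than Fh1 and Idh2 the 95% intervals reached from -0.50 to 0.58. The lower end of the Mdh2 interval, -0.27, lay above the upper end of the Fh1 interval, -0.42, while the intervals of Sdhb (-0.50 to 0.20) and Ogdh (-0.45 to 0.21) reached below it. These intervals are not adjusted for the number of genes.

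**Figure D2:**
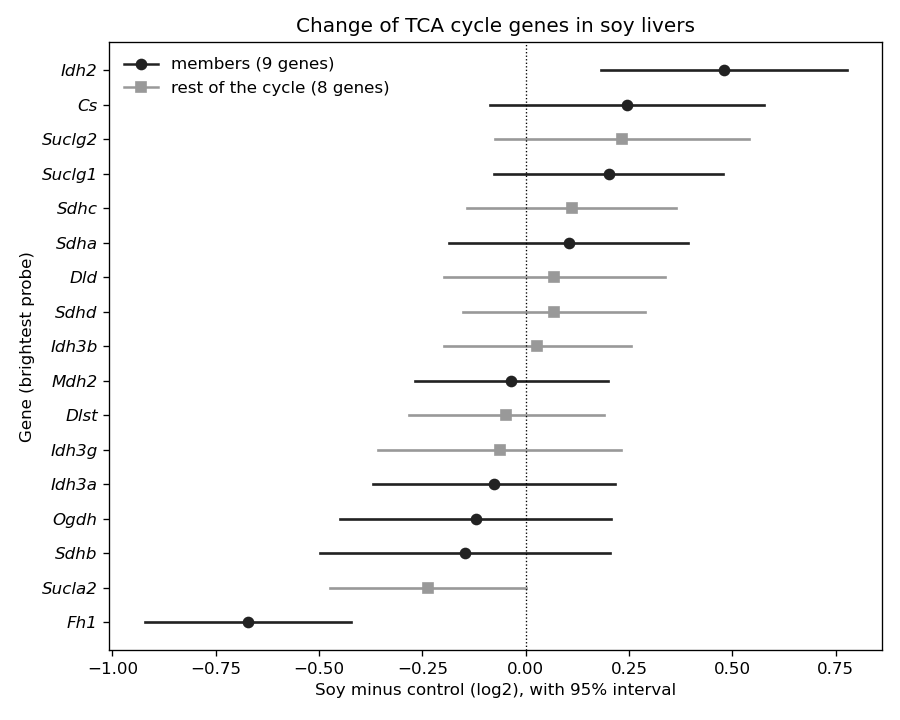
Change of each TCA cycle gene in soy livers (soy minus control, log2, brightest probe) with its 95% interval from limma, with circles for the 9 members and squares for 8 other genes of the cycle. The interval of Fh1 (-0.92 to -0.42) ends below 0 and that of Idh2 (0.18 to 0.78) starts above it, while the other intervals include 0.

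Fumarase was then set against the other enzymes within each array, which describes further a gene already seen to have the largest change and is not independent of it. The mean of the 8 other members was 14.55, 14.67 and 14.51 in control livers, and 14.72, 14.60 and 14.66 in soy livers, which overlap. Fh1 signal minus that mean was 1.04, 0.96 and 0.98 on the control and 0.15, 0.44 and 0.13 on the soy arrays, which do not. The difference between the diets was -0.75. Against single neighbours the difference was -0.64 for Mdh2, -0.53 for Sdhb and -0.78 for Sdha, in each case without overlap. The exact two-sided permutation p was 0.1 for each of these differences, the smallest that 3 arrays against 3 can give, so it does not separate them. The size of such a signal difference on an array depends on the probes, and only its change between the diets is read here.

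**Figure D3:**
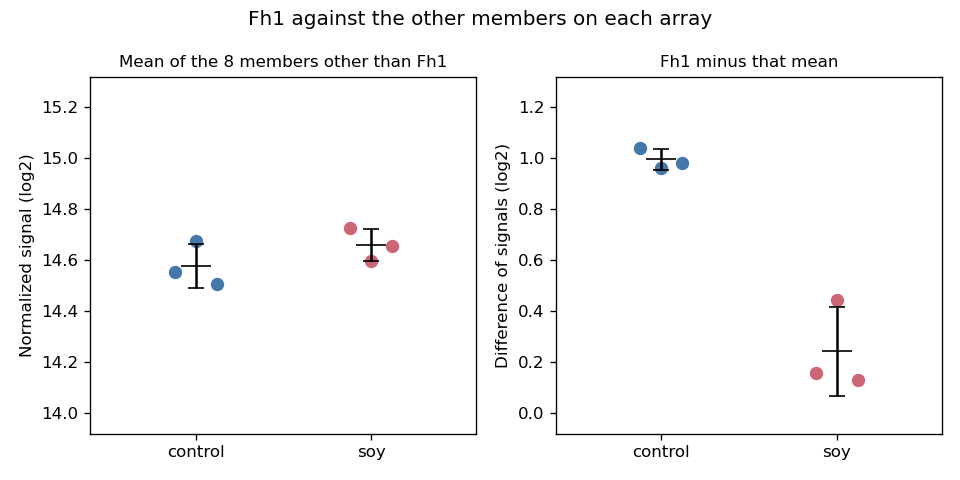
Left, mean normalized signal (log2) of the 8 members other than Fh1 on each array; right, Fh1 signal minus that mean (log2), with 1 point per array and the mean with its SD in black for 3 control and 3 soy arrays. The left points overlap between the diets, while the right ones lie between 0.96 and 1.04 in control and between 0.13 and 0.44 in soy livers.

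Over the 9 members, 4 were higher and 5 lower in soy livers, and the median change was -0.03, beside -0.01 over all genes. Of the other genes listed for the cycle, 8 of 8 were on the array, 0 passed in either direction, and the median was 0.05, with changes from -0.24 (Sucla2) to 0.23 (Suclg2). The 12 markers of mitochondrial content included the outer membrane channel Vdac1, the import receptor Tomm20, the ATP synthase subunit Atp5b and the mitochondrial DNA packaging factor Tfam. On their brightest probes 0 passed and 0 were without overlap, beside 25.5% without overlap among all genes well above background on all arrays. The median change of the 12 markers was 0.02, and the largest differences were those of the chaperone Hspd1 (-0.21, adjusted p = 0.571), Vdac2 (-0.19, adjusted p = 0.642) and Tfam (0.16, adjusted p = 0.651). The dimmer probes of Hspd1 (-0.34, adjusted p = 0.294) and of the chaperone Hspa9 (0.13, adjusted p = 0.684) were without overlap, in opposite directions.

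Among the regulators that drive nuclear genes of mitochondria, 0 of 6 passed and the median was 0.01. The coactivator Ppargc1b changed by -0.59 (SE 0.39, adjusted p = 0.622), where control 3 (10.55) lay below all soy arrays and controls 1 and 2 (12.27 and 11.81) above them. Ppargc1a changed by 0.02 (SE 0.40), with control 3 again the lowest array (8.53). Nrf1 changed by 0.15 and Esrra, the estrogen-related receptor of this axis, by 0.12, both with overlap. A dimmer probe of Nrf1 (-0.29, adjusted p = 0.423) and one of Gabpa (-0.23, adjusted p = 0.398) were lower without overlap. Their other dimmer probes overlapped between the diets, with changes of 0.01 and 0.03 for Nrf1 and 0.05 for Gabpa. The Nrf1 probe at 0.03 was well above background on 0 of 6 arrays.

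Of the 8 cytosolic isoenzymes and shuttle genes that carry carbon and electrons between the cycle and the cytosol, the median change was -0.01 and 1 gene passed, in the direction of lower signal in soy, beside 0.17% of all genes in that direction. This was Got1, the cytosolic aspartate aminotransferase of the malate-aspartate shuttle, which gave 16.76, 16.33 and 15.59 on control and 14.09, 14.17 and 13.79 on soy arrays. Got1 fell by 2.21 (SE 0.28, adjusted p = 0.0310), and its dimmer probe gave -2.23 (adjusted p = 0.0177). Its mitochondrial counterpart Got2 changed by 0.08 and the cytosolic malate dehydrogenase Mdh1 by -0.09, both with overlap. The cytosolic aconitase Aco1 and isocitrate dehydrogenase Idh1 were higher in soy livers without overlap, by 0.26 (adjusted p = 0.376) and 0.24 (adjusted p = 0.403), and did not pass. In the fits that left out 1 array, Got1 passed without control 3 (-2.53, adjusted p = 0.0151). Without each of control 1, control 2, soy 1, soy 2 and soy 3 it missed the threshold (-2.29 to -1.95, adjusted p from 0.0546 to 0.119). It also missed with slide as a block (-2.17, adjusted p = 0.0870) and with a background offset of 16 (-2.21, adjusted p = 0.0540).

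Of the 10 genes at the entries and exits, 0 passed and the median change was 0.01. Pck1, the gluconeogenic enzyme that draws on oxaloacetate, gave 17.81, 17.85 and 17.54 on control and 17.07, 16.74 and 16.84 on soy arrays. Like Fh1, it was lower on each soy array and missed the adjusted threshold, with a change of -0.84 (SE 0.13, adjusted p = 0.0568). Me1, the cytosolic malic enzyme, was higher on each soy array, by 0.67 (SE 0.16, adjusted p = 0.152) and by 0.48 on its dimmer probe. Acly, which splits exported citrate, changed by -0.50 (SE 0.18, adjusted p = 0.364), with soy 2 just above the lowest control array. Its dimmer probe was lower without overlap (-0.37, adjusted p = 0.313). Pyruvate carboxylase (Pcx), the refilling enzyme, changed by -0.01 (SE 0.12), and Me3 was well above background on 0 of 6 arrays.

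Of the 3 other enzymes that release fumarate, none passed. Fumarylacetoacetase (Fah), the last enzyme of tyrosine breakdown, was 15.26, 15.37 and 15.40 on control and 15.17, 14.90 and 14.76 on soy arrays, lower without overlap by 0.40 (SE 0.13, adjusted p = 0.283). Argininosuccinate lyase (Asl) of the urea cycle changed by -0.43 (SE 0.19, adjusted p = 0.445), with overlap. Adenylosuccinate lyase (Adsl) of purine synthesis changed by 0.09 (SE 0.10).

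**Figure D4:**
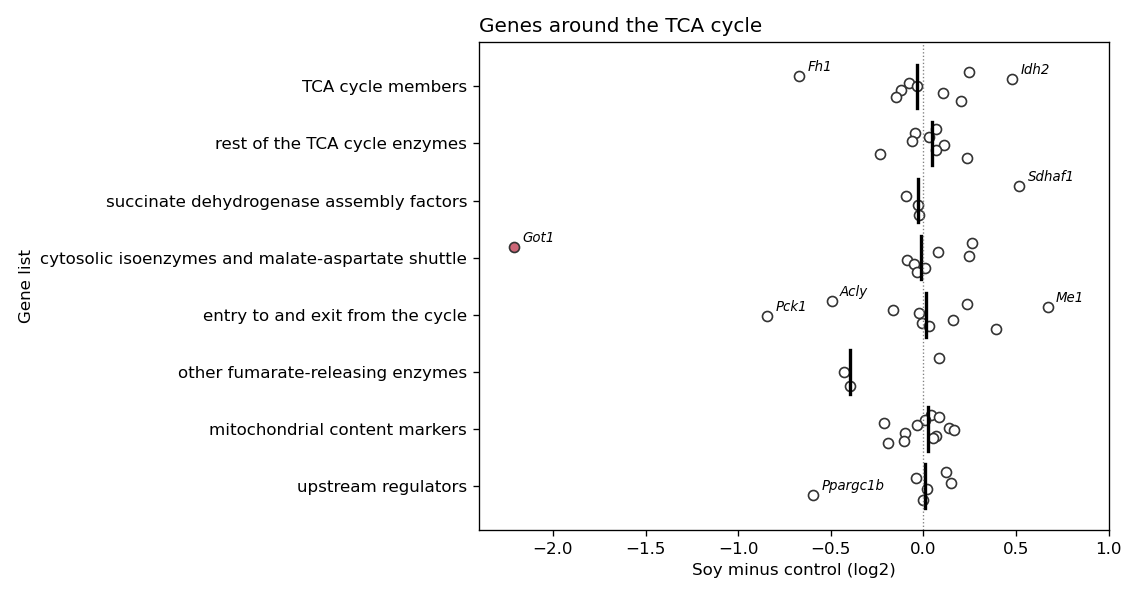
Change in soy livers (soy minus control, log2, brightest probe) of the 9 members and of 7 lists of genes around the cycle, with 1 point per gene, a black bar at the median of each list and a filled point for a gene that passed both thresholds. Got1 (-2.21) is the filled point, and the other labelled points, Fh1 (-0.67), Pck1 (-0.84), Acly (-0.50), Ppargc1b (-0.59), Me1 (0.67), Sdhaf1 (0.52) and Idh2 (0.48), lie away from medians that lie between -0.03 and 0.05 except for the 3 fumarate-releasing enzymes (-0.40).

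The genes most like Fh1 across the 6 arrays were sought among the 13494 other genes well above background that also had a value on all arrays after outlier spots were left out, by the root mean square difference of log2 values after each probe was centred on its own mean. The closest were Pnn (0.08), Cdca4 (0.08), AA536875 (0.08), Sin3a (0.09) and 1700012D01Rik (0.09), and none of them is a gene of the cycle. Their changes lay between -0.69 (Pnn) and -0.50 (Sin3a), which follows from their being chosen for likeness to Fh1. The absence of cycle genes follows from changes already given, the lowest reported besides Fh1 being -0.24 (Sucla2).

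The tissue label and the arrays were examined beside these results. The hepatocyte genes Alb, Ttr, Apoa1, Tat, Cps1, Ass1 and Hnf4a were all well above background on all arrays, with Alb the brightest. Of these 7 genes, 6 were lower in soy livers with a median change of -0.25, and 0 passed. Cps1 (-0.47, adjusted p = 0.176) and Ass1 (-0.55, adjusted p = 0.171) were without overlap. These are 2 of 7 genes, beside 25.5% without overlap among all genes well above background on all arrays. The largest change of the list was that of Tat (-0.76, adjusted p = 0.323), with overlap. The gene that was not lower, Ttr, changed by 0.06, while its dimmer probe was lower without overlap (-0.39, adjusted p = 0.286). Summed over the list, the linear signal was 1485790, 1481639 and 1397777 on the control and 1377142, 1216416 and 1174541 on the soy arrays. The share of spots well above background also differed between the diets, with 62.4%, 61.3% and 64.4% on the control and 52.8%, 53.9% and 54.8% on the soy arrays. The part of either in the Fh1 difference was not tested.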

How the data were processed

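Liver RNA of 6 mice was measured on 1-colour Agilent arrays. The authors scanned the arrays, read the images with Feature Extraction 11.5.1.1 and deposited, per the file headers, the median intensity of each spot and its local background, without scaling, and a processed intensity with background and spatial trend subtracted. They also deposited a table of log2 values, which differed from the values computed here by 0.0561 at most. The array annotation uses mm9, so gene symbols (58.3% of 56605 probes) came from RefSeq accessions in a table of GRCm38.p6, whose positions are printed only for its own promoter sequences.

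Median intensities were background corrected (normexp, offset 50), control spots removed, arrays quantile normalized and log2 transformed, outlier spots left out and spots of a probe averaged. All 56605 probes were fitted with limma 3.58.1 in R 4.3.3 (soy against control, no covariate) and adjusted by the Benjamini-Hochberg method. The fit was also run on simulated data with independent noise, which do not carry the slide layout, and its outcome is not used here. Genes are given by their brightest probe. Nothing in the sources says whether the mice of a group were related or shared a cage. Members and lists were chosen with earlier results of these data known, and no gene list was tested as a set. From each pathway list the text names the genes that passed and the 3 largest changes; other list genes named beside them, for their place in the pathway, were chosen after their values were seen. Tables were made with Python 3.11.15, pandas 2.3.3 and matplotlib 3.10.9. Small RNA sequencing and qRT-PCR were not analysed here. 1 gene of the cycle is not reported here.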

Additional observations from a re-analysis of the deposited data

How the results depend on the processing

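Fh1 was lower in soy livers under each of the 19 alternatives with a test, between -0.74 and -0.61 (log2), with adjusted p between 0.0182 and 0.199. Several of these keep the Fh1 values of the main fit and alter only the test, the other probes or the threshold. The change of -0.67 recurs there by construction. Leaving out 1 array could not turn the sign of Fh1 or of Idh2, since their groups did not overlap. Fh1 passed under 4 alternatives, each of which gave 1 member passing. With processed intensities scaled to their 75th percentile it changed by -0.65 (adjusted p = 0.0182). There 5892 genes passed, beside 122 in the main fit, and the unadjusted limma p of Fh1 was 0.00351, beside 0.000302. With the probes restricted to those above background throughout a group it changed by -0.67 (adjusted p = 0.0337, fewer probes tested, 310 genes passing). Trend and robust eBayes gave -0.67 (adjusted p = 0.0393, 183 genes passing). The mean of the probes of a gene gave -0.67 (adjusted p = 0.0469, fewer tests, 130 genes passing). With 1 array left out Fh1 missed the threshold in each fit (-0.74 to -0.61, adjusted p = 0.0955 to 0.199). It also missed with slide as a block (-0.72, adjusted p = 0.159), where soy 2, alone on its slide, adds nothing to the change. Idh2 was higher in all 19 (0.39 to 0.59) and passed in none (smallest adjusted p = 0.101). The sign of Ogdh turned with slide as a block (0.0196) and without soy replicate 2 (0.0122; -0.235 to 0.0122 with 1 array left out), and that of Mdh2 with slide as a block (0.00232) and without soy replicate 3 (0.00662; -0.0892 to 0.00662 with 1 array left out). The member median was 0.0596 within slide 1 and 0.0765 within slide 3, beside -0.03 over all arrays. Sdhb changed by -0.16 within slide 1 and by 0.08 within slide 3.

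Genes passing on any of their probes numbered 122 (78 higher, 44 lower; 105 by the brightest probe), and 48 with offset 16, 5892 with the processed signal (5332 higher, 615 lower, some by probes in both directions), 310 with the background restriction (192 higher, 120 lower), 16 with slide as a block, 50 with the replicate block, and 16 to 126 with 1 array left out. Pathway genes passing numbered 1 (Got1), 0 with offset 16 or slide as a block, 3 with the processed signal, 2 with the 75th-percentile shift, cyclic loess, the background restriction, trend and robust eBayes or the mean of probes, and 0 to 1 with 1 array left out. Where a cause is not given in parentheses, it was not tested. Pck1 passed under 6 alternatives. The median of the 3 other fumarate-releasing enzymes, -0.40 in the main fit, was -0.25 with slide as a block. The 75th-percentile shift moved the median of all genes to 0.11, and Fh1 changed by -0.69 there.

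Deviations of same-numbered arrays correlated at 0.116 and 0.106 (slide shared) and -0.057, others at -0.202 to 0.105 (27282 probes), so mouse pairing is undecided. The replicate block gave Fh1 an adjusted p of 0.105. Mean-signal columns were not found in the files used, so normexp was not run on them.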

Other observations

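Markers of other cells gave the following medians (soy minus control, log2, brightest probe), and 0 genes passed in any of these lists. Kupffer cell markers had a median of 0.11 over 6 genes, endothelial cell markers -0.06 over 5, stellate cell markers -0.08 over 5, and cholangiocyte markers -0.01 over 4. Of the cholangiocyte markers, 2 of 4 were well above background on 6 of 6 arrays, as were 4 of 5 stellate cell markers. Among the stellate cell markers, the collagen gene Col1a1 had the largest difference in these lists, with 9.90, 8.53 and 8.94 in control and 7.84, 8.06 and 8.49 in soy livers. These values did not overlap and gave a change of -0.99 (SE 0.34, adjusted p = 0.317). Control 1 stood well above the other controls and so carried part of this change. The dimmer probe of Col1a1 gave -0.86 with overlap. Red cell and neutrophil markers had a higher mean in soy livers for 4 of 4 genes on the array, with a median of 0.50 and with overlap between the diets for each. For Alas2, control 2 (11.42) lay far below controls 1 and 3 (13.95 and 13.93), which lay above all soy arrays. For Hba-a1, soy 2 (18.04) lay above all controls, while soy 1 (16.90) and soy 3 (17.22) lay within their range. Adipocyte markers had a median of -0.07, with Adipoq and Plin1 well above background on 0 of 6 arrays and Cidec (0.61, highest on soy 1) and Lep (-0.21) on 6 of 6, each of the latter with overlap. Skeletal muscle markers had a median of 0.09, with 3 of 5 genes well above background on 0 of 6 arrays.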
